A study of Mus musculus with 12 samples.

Results

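The genes described here are 9 transcription factors that sit on the output side of the circadian clock: Ciart, Dbp, Tef, Hlf, Nfil3, Nr1d1, Nr1d2, Bhlhe40 and Bhlhe41. They were chosen by name, with earlier results of these data known. All 9 were found among the 55487 gene rows of each deposited table and passed the filter on low values in both tissues. Total RNA of cerebral cortex and of hippocampus was sequenced from C57BL/6 mice labelled mTert WT, called wild type here, and from C57BL/6 mice labelled mTert KO (G1), called knockout, with 3 libraries in each of the 4 groups. The deposited data name the knockout groups KO G1 Homo, read here as homozygous. Tert encodes the catalytic subunit of telomerase. The labels give neither the age nor the sex of the mice, nor the time of day at which tissue was taken, and they do not state whether each library is a different animal. The p-values therefore set the difference between genotypes against the spread of libraries within a group, and that spread may be technical.

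In the circadian clock, the activators CLOCK and BMAL1 (the product of Arntl) bind E-box sequences and switch on genes whose products repress them, so that transcript levels rise and fall over the day. The 9 factors are themselves driven by this loop and pass its rhythm on to other genes. DBP, TEF and HLF activate genes through D-box sequences, and NFIL3 represses through the same sequence. NR1D1 and NR1D2, also called REV-ERB alpha and beta, repress genes with ROR elements, Arntl among them, while BHLHE40 and BHLHE41 (DEC1 and DEC2) and CIART (CHRONO) repress CLOCK-BMAL1 itself.

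In both tissues Ciart, Dbp, the REV-ERB genes and the DEC genes lay higher in every knockout library than in any wild-type library, and Nfil3 lay lower. The knockout-to-wild-type ratio of mean normalized counts was 3.02 in cortex and 2.30 in hippocampus for Ciart, 2.17 and 1.93 for Dbp, and 1.61 and 1.68 for Nr1d1. Tef differed least among the 9, with ratios of 1.13 and 0.970. In hippocampus 6 of the 9 rose and 1 fell, where 29.2% of all 22337 tested genes were called, 14.1% higher and 15.1% lower. In cortex 4 of the 9 rose and 0 fell, where 1.94% of all 21945 tested genes were called, 1.28% higher and 0.661% lower. The cortex count was 1 or 2 when any 1 library other than wild-type library 2 was left out, with Ciart called each time. The median log2 fold change of the 9 was 0.49 in cortex and 0.38 in hippocampus, beside medians of -0.01 and 0.02 over all tested genes.

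Here a gene was called, and "rose" or "fell" is written, at a Benjamini-Hochberg adjusted p below 0.05 over all tested genes in limma, a linear model of log2(normalized count + 1). Fold changes are knockout over wild type on that log2 scale, with the SE, and means are given with the SD of 3 libraries. Normalized counts are read counts that the authors divided by 1 size factor per library, and the 2 tissues were scaled separately, so levels are compared within a tissue.

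The libraries held between 68424934 and 86639113 reads assigned to genes. Tert measured 105 to 241 normalized counts in the wild-type libraries of both tissues, 0 in every knockout cortex library and 0 to 6.31 in knockout hippocampus. None of the 10 cortical and 10 hippocampal markers was at 0 in all libraries of the tissue it marks. The same held in the other tissue, so this does not tell the tissues apart. Cortex wild-type library 2 stood apart: the chi-square per gene between its reads and those of wild-type libraries 1 and 3 was 103 and 95.4, and between libraries 1 and 3 it was 9.71. The number of all genes called in cortex was 426 with it and 4693 without it (21.4% of those tested), so the cortex test of each factor is also given without that library. Hippocampus wild-type libraries 1 and 2 also differed, with a chi-square per gene of 49.4. It was 15.8 between libraries 1 and 3 and 20.5 between libraries 2 and 3 of that group. In these bulk samples, fewer cells of a type and less RNA per cell cannot be told apart.

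**Figure D1:**
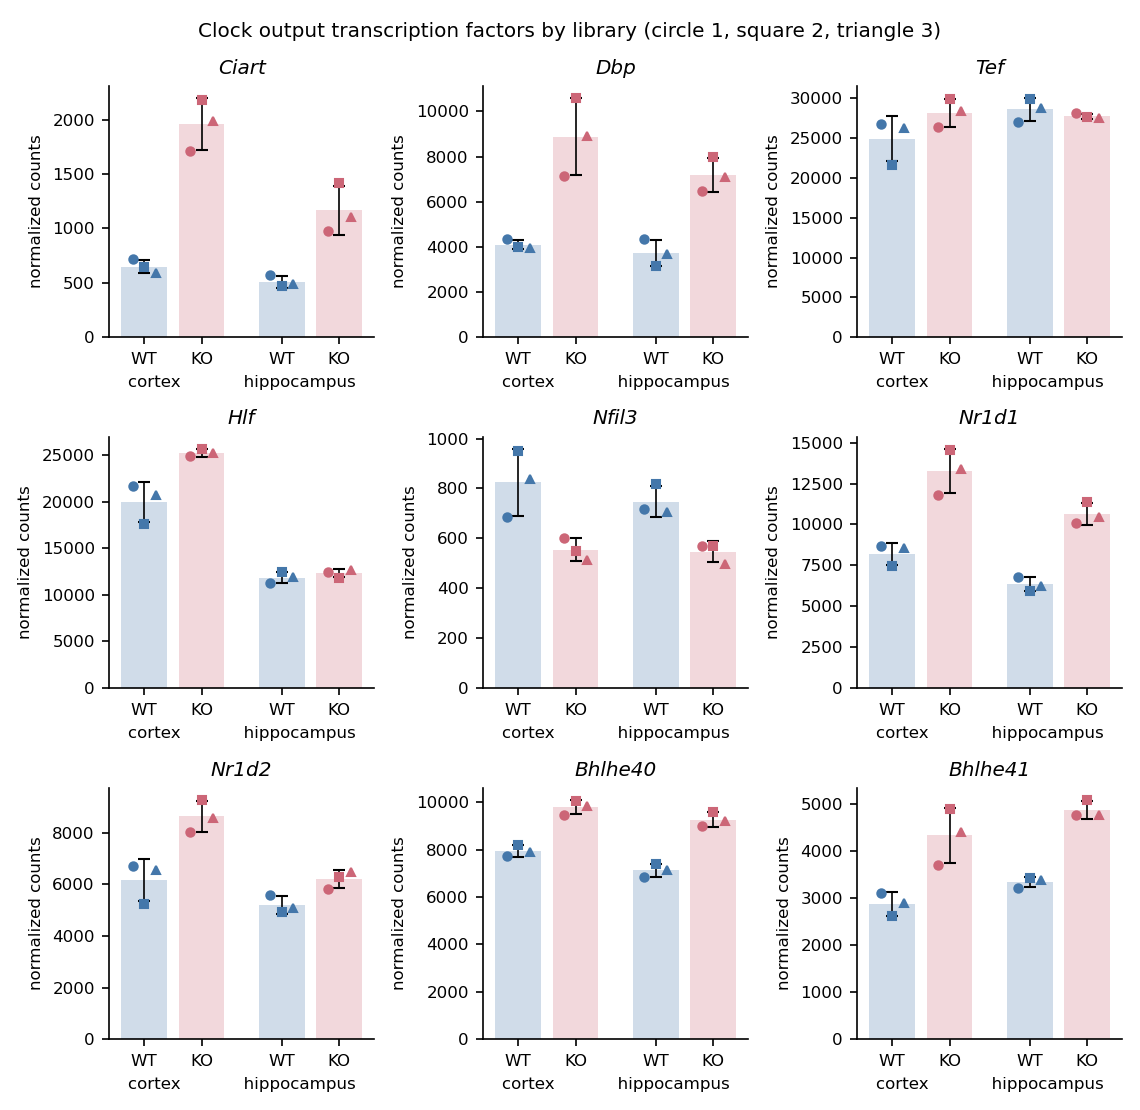
Normalized counts (vertical axes, linear from 0) of the 9 factors in each of the 12 libraries, blue for wild type (WT) and red for knockout (KO), with the bar at the mean, the error bar giving the SD of 3 libraries and the symbol giving the library number. Knockout libraries lay above wild-type libraries in both tissues for Ciart, Dbp, Nr1d1, Nr1d2, Bhlhe40 and Bhlhe41 and below them for Nfil3, while for Tef the groups overlapped in both tissues.

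Ciart, which represses CLOCK-BMAL1, had the largest fold change of the 9 in both tissues (ENSMUSG00000038550, chromosome 3, 95878503 to 95882251, minus strand, GRCm38). In cortex it measured 716, 641 and 591 normalized counts in wild-type libraries 1, 2 and 3 and 1708, 2187 and 1987 in knockout libraries 1, 2 and 3. In hippocampus the wild-type values were 569, 470 and 486 and the knockout values 978, 1416 and 1105. The groups were far apart in each tissue, and the knockout libraries spread more than the wild-type ones. Ciart rose by 1.59 ± 0.12 in cortex (limma adjusted p = 0.00371) and by 1.19 ± 0.14 in hippocampus (limma adjusted p = 0.000890), and it was called in all 17 alternative analyses of each tissue.

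Because members moved together, the 250 bases before each RefSeq gene start (build GRCm38.p6) were searched on both strands for sequences that clock factors are known to bind. Of the 9 factors 8 had at least 1 window in the RefSeq table, with 2 windows for Tef; Bhlhe40 had none. The E-box CACGTG lay in 6.02% of all 32851 windows, and in those of Ciart, Bhlhe41 and Tef. Ciart held it 3 times, starting 116, 58 and 44 bases before the start, Bhlhe41 once at 153 bases, and Tef once in each window. The variant CACGTT lay in 3.85% of all windows and in that of Nr1d1, 28 bases before the start, there on the opposite strand, so that it reads AACGTG along the gene. The D-box forms TTATGTAA and TTACGTAA, in 0.819% and 0.113% of all windows, were in 0 of the member windows. TAGGTCA, the core of the ROR element, lay in 2.23% of all windows and in that of Nfil3, 12 bases before the start, and the cAMP element TGACGTCA in 1.55% and in that of Hlf, 9 bases before the start. No matches in member windows overlapped each other. Both Tef windows and the last 34 bases of the Nfil3 window lie within the gene as GENCODE annotates it. The matches of Tef and Nfil3 are therefore upstream of the RefSeq start only. A match describes the letters only.

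The windows of Ciart (chr3:95882252-95882478), Bhlhe41 (chr6:145865559-145865670) and Nr1d1 (chr11:98775378-98775627) are shown because Ciart and Nr1d1 were among the 3 factors with the largest rises and Bhlhe41 holds the same E-box as Ciart; all 3 are on the minus strand, are written 5′ to 3′ along the gene from RefSeq, and end where the GENCODE gene or the RefSeq start begins. Capitals mark the E-box CACGTG or its variant.
Ciart: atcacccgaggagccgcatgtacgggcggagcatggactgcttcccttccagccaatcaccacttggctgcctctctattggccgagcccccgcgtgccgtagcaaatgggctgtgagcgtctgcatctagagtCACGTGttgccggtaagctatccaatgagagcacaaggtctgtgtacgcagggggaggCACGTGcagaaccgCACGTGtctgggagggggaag
Bhlhe41: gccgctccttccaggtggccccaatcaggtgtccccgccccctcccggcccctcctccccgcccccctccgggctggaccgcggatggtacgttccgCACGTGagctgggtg
Nr1d1: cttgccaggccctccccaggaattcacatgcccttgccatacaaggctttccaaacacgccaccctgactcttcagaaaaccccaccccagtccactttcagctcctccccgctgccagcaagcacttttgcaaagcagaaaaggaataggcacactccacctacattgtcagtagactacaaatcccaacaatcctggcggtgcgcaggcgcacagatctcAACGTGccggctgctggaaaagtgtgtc

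Of the 3 D-box activators, Dbp was the one called with all libraries. Dbp (ENSMUSG00000059824, chromosome 7, 45705088 to 45710203, plus strand) measured 4328, 3985 and 3966 normalized counts in wild-type cortex and 7155, 10577 and 8928 in knockout cortex. In hippocampus it measured 4345, 3167 and 3674 in wild type and 6483, 7964 and 7100 in knockout. In both tissues the lowest knockout library was well above the highest wild-type library. Dbp rose by 1.10 ± 0.13 in cortex (limma adjusted p = 0.0160; 1.08 with adjusted p = 0.000904 without wild-type library 2) and by 0.95 ± 0.12 in hippocampus (adjusted p = 0.00116). The cortex call was lost without wild-type library 3, knockout library 2 or knockout library 3, and adjusted p-values reached 0.116 over the alternatives. Sphk2, a sphingosine kinase gene on the opposite strand, shares 539 exonic bases with Dbp, 18.0% of its merged exons. The means of Sphk2 were 2714 ± 135 and 2323 ± 157 in wild-type and knockout cortex and 3051 ± 168 and 3038 ± 40.0 in hippocampus. The part of reads from the shared bases in the Dbp result was not tested.

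Hlf and Tef, the other D-box activators, differed less between the genotypes. Hlf (ENSMUSG00000003949, chromosome 11, 90336536 to 90390895, minus strand) measured 21616, 17541 and 20698 normalized counts in wild-type cortex and 24837, 25634 and 25161 in knockout cortex, groups that did not overlap. The test was not passed with all libraries (0.34 ± 0.08, limma adjusted p = 0.102) and was passed without wild-type library 2, its lowest (0.25, adjusted p = 0.000431). In hippocampus, where Hlf measured 11271, 12394 and 11889 in wild type and 12457, 11854 and 12661 in knockout, the groups overlapped (0.06, 95% confidence interval -0.05 to 0.17, adjusted p = 0.414). Tef (ENSMUSG00000022389, chromosome 15, 81802421 to 81826863, plus strand) measured 26839, 21656 and 26282 in wild-type cortex and 26367, 29887 and 28400 in knockout cortex. The knockout library 1 of Tef lay between the wild-type libraries, and the interval of the fold change was -0.04 to 0.41 (adjusted p = 0.365; 0.09 with adjusted p = 0.239 without wild-type library 2). In hippocampus Tef measured 27095, 29931 and 28850 in wild type and 28127, 27627 and 27555 in knockout, with an interval of -0.15 to 0.06 (adjusted p = 0.530). The antisense gene Gm17597 overlaps Tef over 2.45% of its merged exons.

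Nfil3, which represses through the D-box, lay on the other side of zero. In hippocampus Nfil3 (ENSMUSG00000056749, chromosome 13, 52967209 to 52981073, minus strand) measured 716, 818 and 706 normalized counts in wild type and 571, 570.03 and 499 in knockout. It fell by 0.45 on the log2 scale (SE 0.09, limma adjusted p = 0.00858), and the groups did not overlap. In cortex it measured 685, 951 and 839 in wild type and 603, 548 and 515 in knockout, again without overlap, but the test was not passed there (-0.56 ± 0.13, limma adjusted p = 0.0945). Without wild-type library 2, its highest, the cortex value was -0.45 (adjusted p = 0.0190).

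The REV-ERB genes both lay higher in the knockout, Nr1d1 by more. Nr1d1 (ENSMUSG00000020889, chromosome 11, 98767932 to 98775333, minus strand) measured 8668, 7435 and 8543 normalized counts in wild-type cortex and 11830, 14540 and 13402 in knockout cortex. In hippocampus it measured 6802, 5958 and 6242 in wild type and 10075, 11392 and 10465 in knockout. The groups were well separated in both tissues. Nr1d1 rose by 0.69 ± 0.10 in cortex (limma adjusted p = 0.0256; 0.62 with adjusted p = 0.000676 without wild-type library 2) and by 0.75 ± 0.06 in hippocampus (adjusted p = 0.000190). In cortex the call was lost when any 1 library other than wild-type library 2 was left out, with adjusted p-values of up to 0.158 over the alternatives. Thra, the thyroid hormone receptor alpha gene, lies on the opposite strand and shares 263 exonic bases, 8.55% of the merged exons of Nr1d1. Thra measured 41728 ± 272 and 39571 ± 504 in wild-type and knockout cortex (adjusted p = 0.480), and rose in hippocampus from 59424 ± 4030 to 69670 ± 1064 (0.23 ± 0.06, adjusted p = 0.0199). The sources used here do not give library strandedness, so reads of such overlaps cannot be told apart. Their part in the results of Nr1d1 and of the other overlapped factors was not tested.

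Nr1d2 (ENSMUSG00000021775, chromosome 14, 18204054 to 18239127, minus strand) measured 6701, 5257 and 6574 normalized counts in wild-type cortex and 8052, 9281 and 8583 in knockout cortex. In hippocampus it measured 5574, 4938 and 5096 in wild type and 5835, 6306 and 6487 in knockout. The groups were separate in each tissue, but in hippocampus the lowest knockout library was close to the highest wild-type one. Nr1d2 rose by 0.26 ± 0.06 in hippocampus (limma adjusted p = 0.0170), a call lost without wild-type library 3 and without knockout library 2 or 3 (adjusted p = 0.0717, 0.0658 and 0.0652). In cortex the value was 0.49 ± 0.11 (adjusted p = 0.0724) with all libraries and 0.38 (adjusted p = 0.00183) without wild-type library 2.

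The DEC genes both lay higher in the knockout of each tissue. Bhlhe41 (DEC2; ENSMUSG00000030256, chromosome 6, 145858243 to 145865558, minus strand) measured 3218, 3420 and 3387 normalized counts in wild-type hippocampus and 4760, 5084 and 4756 in knockout hippocampus. Bhlhe40 (DEC1; ENSMUSG00000030103, chromosome 6, 108660629 to 108666925, plus strand) measured 6846, 7402 and 7133 there in wild type and 8987, 9606 and 9219 in knockout. For both, every knockout library exceeded every wild-type library by more than the range of either group. Bhlhe41 rose by 0.54 ± 0.05 (limma adjusted p = 0.000181) and Bhlhe40 by 0.38 ± 0.04 (adjusted p = 0.000904).

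In cortex Bhlhe40 measured 7714, 8191 and 7899 normalized counts in wild type and 9473, 10063 and 9860 in knockout. It rose by 0.30 ± 0.06, a call close to the threshold (limma adjusted p = 0.0480; 0.33 with adjusted p = 0.000336 without wild-type library 2) that was lost in 11 of 17 alternatives. Bhlhe41 measured 3112, 2613 and 2891 in wild-type cortex and 3709, 4881 and 4407 in knockout cortex. Its groups did not overlap either, and its test came close to the threshold without passing it (0.59 ± 0.11, adjusted p = 0.0544; 0.52 with adjusted p = 0.00733 without wild-type library 2). The gene model Gm43909, on the opposite strand, covers 19.0% of the merged exons of Bhlhe41 at 136 ± 9.78 and 198 ± 27.2 normalized counts in wild-type and knockout cortex and 192 ± 20.5 and 243 ± 17.0 in hippocampus. The antisense gene 0610040F04Rik covers 2.51% of those of Bhlhe40, at 166 ± 20.8 and 239 ± 2.55 in wild-type and knockout cortex (limma adjusted p = 0.101).

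**Figure D2:**
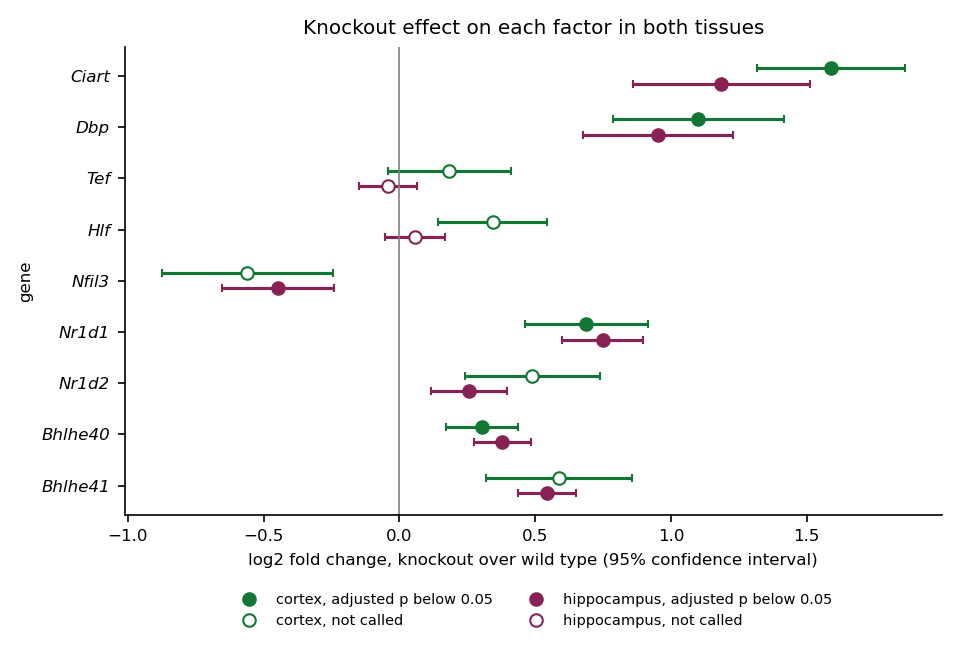
Log2 fold change of knockout over wild type with its 95% confidence interval (horizontal axis) for each factor, green for cortex and wine red for hippocampus, filled where the limma adjusted p was below 0.05. Ciart is highest in both tissues (1.59 and 1.19), Nfil3 is the only factor below zero in both (-0.56 and -0.45), and the cortex intervals are mostly wider than the hippocampus ones.

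Taking the tissues side by side, 8 of the 9 factors had the same sign in cortex and hippocampus, Tef being the exception, as did 57.6% of the 21282 genes tested in both. In 7 of the 9 the groups were separate in both tissues in the same direction, as in 11.7% of those genes. Separate groups were found in 28.3% of all tested genes in cortex (16% with the knockout higher, 12.2% lower) and in 45.8% in hippocampus (24.3% higher, 21.5% lower). Among the factors these counts were 7 higher and 1 lower in cortex and 6 higher and 1 lower in hippocampus. With all libraries, 4 factors were called in both tissues, Ciart, Dbp, Nr1d1 and Bhlhe40, against 0.738% of the genes tested in both that were called in the same direction. Without cortex wild-type library 2, 7 rose and 1 fell in cortex, where 11% of all tested genes were called higher and 10.4% lower, and 7 were called in both tissues in the same direction, against 12.4% of genes tested in both. That count adds Nfil3, Nr1d2 and Bhlhe41. Because the 9 factors were chosen with earlier results of these data known, the shares beside them are not an independent test of the list.

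No factor passed the test of a different knockout effect in the 2 tissues, the interaction term of 1 limma fit over all 12 libraries, which called 3.02% of all tested genes. The count was 0 of 9 with limma and also with edgeR and DESeq2, and 1 of 9, Hlf, had an unadjusted p below 0.05. Hlf was 0.29 lower in hippocampus than in cortex in its log2 fold change (interaction -0.29 ± 0.10, 95% confidence interval -0.51 to -0.07, limma adjusted p = 0.133). The interval for Ciart ran from -0.83 to 0.03 and that for Dbp from -0.58 to 0.28, so differences within those bounds between the tissues were not excluded. The narrowest interval was that of Bhlhe40, from -0.08 to 0.23.

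Levels were also set against each other per kilobase of merged exon. In wild-type cortex Tef stood highest, with 2753 to 3412 normalized counts per kilobase, and overlapped Hlf, next in order, at 2626 to 3236. Ciart stood lowest at 262 to 317, below Nfil3 at 338 to 469. In knockout cortex Nr1d1 stood highest, at 3845 to 4725, and Nfil3 lowest, at 254 to 298, with Ciart above both Nfil3 and Bhlhe41 at 755 to 967. The same exchange of the lowest place was seen in hippocampus, where Ciart measured 208 to 252 and Nfil3 348 to 404 in wild type, and Ciart 433 to 626 and Nfil3 246 to 282 in knockout. Dbp also changed places with Bhlhe40. Per kilobase it was below Bhlhe40 in the wild type of each tissue and above it in the knockout of each, without overlap of the 3 libraries in any of the 4 groups.

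Ratios between related factors in 1 library do not depend on how libraries were scaled. The ratio of Dbp to its D-box competitor Nfil3, in normalized counts, was 6.32, 4.19 and 4.73 in wild-type cortex and 11.9, 19.3 and 17.3 in knockout cortex. In hippocampus this ratio was 6.07, 3.87 and 5.21 in wild type and 11.4, 13.97 and 14.2 in knockout. It was 3.16 and 2.64 times higher in knockout cortex and hippocampus, from the means of the log2 ratio. The ratio of Hlf to Nfil3 was 1.87 and 1.42 times higher and that of Tef to Nfil3 1.68 and 1.33 times higher, without overlap of the groups, although neither Hlf nor Tef was called by itself. Nr1d1 to Nr1d2 was 1.15 and 1.41 times higher, and Nr1d1 to its target Arntl 2.06 and 1.88 times higher, likewise without overlap. Bhlhe41 to Bhlhe40 was 1.12 times higher in hippocampus without overlap. In cortex it was 1.22 times higher and the groups overlapped (exact permutation test, 2-sided, p = 0.2). The other 11 of these 12 comparisons each gave p = 0.1, the smallest that an exact 2-sided permutation of 3 against 3 libraries allows, and 0.109 after Benjamini-Hochberg adjustment over the 12, so no ratio could pass 0.05.

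**Figure D3:**
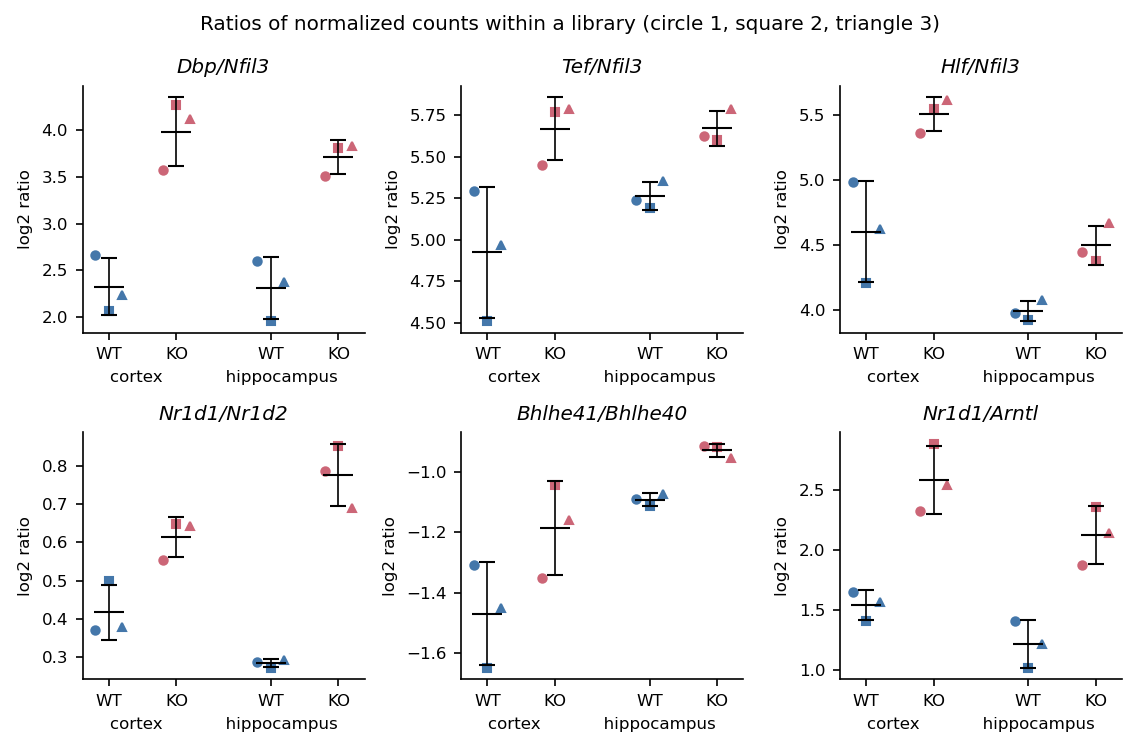
Log2 ratio of the normalized counts of 2 factors in the same library (vertical axes, scaled per panel and not from 0), blue for wild type (WT) and red for knockout (KO), with the mean and SD of 3 libraries. The knockout lies above the wild type in each panel and tissue, and of these 12 comparisons the groups overlap in Bhlhe41/Bhlhe40 in cortex.

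The other genes of the pathway were taken from 2 lists, 19 core clock genes and 12 genes known as targets or stable outputs of the clock. In hippocampus, where 14.1% of all tested genes were called higher and 15.1% lower, 6 of 19 core clock genes rose and 6 fell, with a median of -0.02. With the trend of each library along merged exonic length removed, 9 rose and 3 fell, where 28.5% and 9.64% of all tested genes did. Per1 and Cry1 and Cry2, whose products repress CLOCK-BMAL1, rose by 0.54 ± 0.05, 0.44 ± 0.11 and 0.35 ± 0.04, and Npas2, a paralogue of Clock, rose by 0.37 ± 0.05. Clock itself fell from 6836, 7295 and 7022 normalized counts to 4015, 4167 and 4321, by 0.76 on the log2 scale (limma adjusted p = 4.42e-05), and Per3, Rora and Btrc fell by 0.45, 0.50 and 0.43. These falls were smaller with the length trend removed: Clock was then at -0.37 and Per3 at -0.20, both still called, while Rora (-0.13, adjusted p = 0.122) and Btrc (0.032, adjusted p = 0.690) were not called. Cry1 was no longer called when wild-type library 3, knockout library 1 or knockout library 2 was left out (adjusted p = 0.0757, 0.0552 and 0.0758). Period genes thus moved in both directions, Per1 higher and Per3 lower, and Per2 overlapped between the groups (adjusted p = 0.111). Arntl measured 2555, 2941 and 2679 in wild type and 2750.2, 2223 and 2364 in knockout, groups that overlapped (-0.16 ± 0.09, adjusted p = 0.212).

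In cortex 2 of 19 core clock genes rose, Per1 by 0.71 ± 0.10 (limma adjusted p = 0.0289) and Rorb by 0.62 ± 0.06 (adjusted p = 0.00723), and 0 fell, with a median of 0.08. Rorb is also a marker of a cortical layer. The Rorb call was lost without knockout library 2 or 3 (adjusted p = 0.0596 and 0.0724), and the Per1 call without any 1 library other than wild-type library 2 (up to 0.171). Without wild-type library 2, 6 rose and 4 fell, where 11% of all tested genes were called higher and 10.4% lower. With all libraries these shares were 1.28% and 0.661%. Clock measured 7168, 5358 and 7082 normalized counts in wild-type cortex and 4795, 4957 and 4914 in knockout, below the wild type in every library (-0.41 ± 0.11, adjusted p = 0.131). Arntl, the gene that NR1D1 represses, measured 2757, 2794 and 2887 in wild type and 2365, 1965 and 2294 in knockout, also without overlap (-0.35 ± 0.08, adjusted p = 0.0915).

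Among the clock output targets, Usp2, a deubiquitinase gene with a clock-driven transcript, was the one called in both tissues. Usp2 measured 4545, 5294 and 4736 normalized counts in wild-type cortex and 7506, 8353 and 7803 in knockout, and it rose by 0.70 ± 0.08 in cortex (limma adjusted p = 0.0104) and by 0.50 ± 0.04 in hippocampus (adjusted p = 0.000152). In hippocampus Tsc22d3, Por and Alas1 rose as well (0.35, 0.28 and 0.25), and Lonrf3 fell from 758, 811 and 758 to 200.1, 243 and 253, so that 4 of 12 rose and 1 fell. Fabp7, a brain fatty acid binding protein gene that NR1D1 represses, fell in cortex from 461, 577 and 469 to 314, 307 and 335 (-0.65 ± 0.12, adjusted p = 0.0451), and 1 of the 11 tested targets rose and 1 fell there. In cortex Usp2 was no longer called when wild-type library 3 or any 1 of the knockout libraries was left out (adjusted p up to 0.0928), and Fabp7 when any 1 library other than wild-type library 2 was (up to 0.211). The hippocampus call of Alas1 was lost without knockout library 2 (adjusted p = 0.0611). In hippocampus Fabp7 measured 652, 709 and 669 in wild type and 604, 647 and 541 in knockout (adjusted p = 0.141). The target list had a median of 0.20 in each tissue. Of all tested genes, 14.1% were called higher and 15.1% lower in hippocampus, and 1.28% and 0.661% in cortex.

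**Figure D4:**
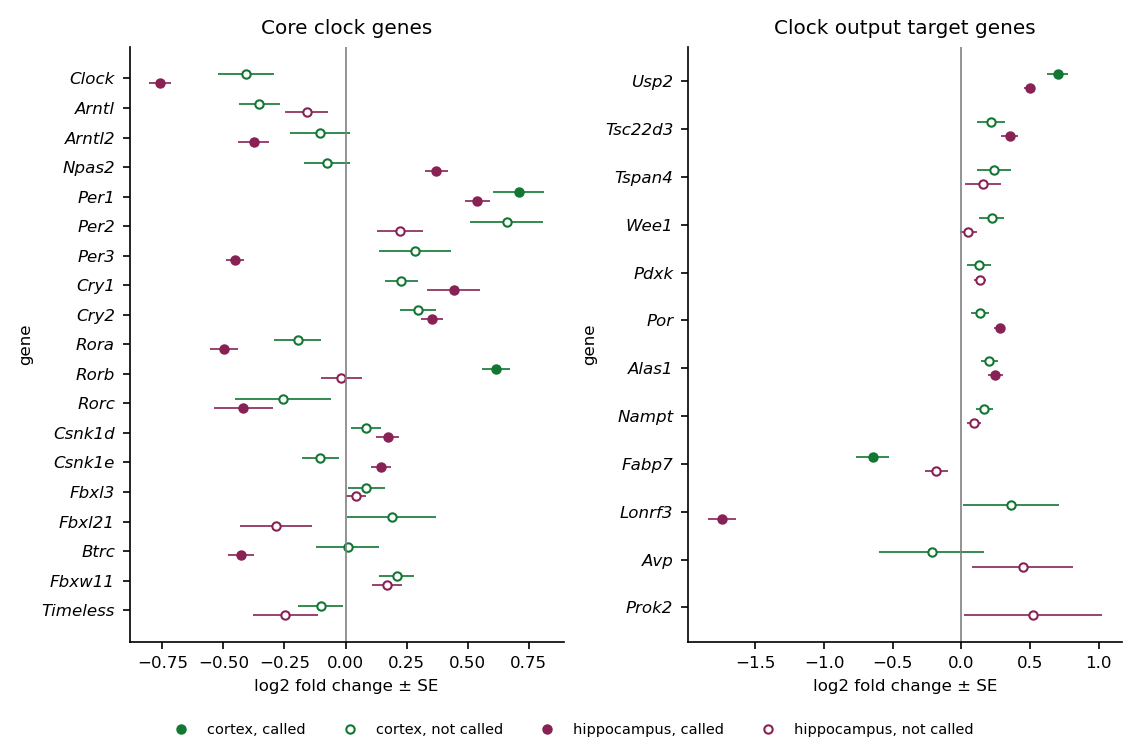
Log2 fold change of knockout over wild type with its SE (horizontal axes) for 19 core clock genes and 12 clock output targets, green for cortex and wine red for hippocampus, filled where the limma adjusted p was below 0.05; Prok2 was not tested in cortex. Per1 and Usp2 were called higher in both tissues, while Clock (-0.76) and Lonrf3 (-1.74) are the lowest hippocampus values of their panels.

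Genes whose profile over the 12 libraries lay closest to a factor were found by the root mean square difference of log2 values, each gene centred on the wild-type mean of its tissue, among 14017 protein-coding genes. The closest to Dbp were Ccl28, Hif3a, Mthfd1l, Emilin2, Ano2, Tac1, Pla2g4e and Gli1, with differences of 0.270 to 0.324. The closest to Ciart were Clspn, Hif3a, Plin4, Ano2, Ccl28, Mthfd1l, Epha8 and Emilin2, with differences of 0.356 to 0.494. None of the 19 core clock genes was among either set of 8. Among the 9 factors, Dbp lay closer to Nr1d1 (0.247) than to any of those genes, and the closest pairs were Hlf with Tef (0.101) and Bhlhe41 with Nr1d1 (0.133). This measure counts the size of a change as well as its shape, and Tac1 is also on the striatal list and Hif3a and Plin4 on the list of glucocorticoid-responsive genes.

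Markers of neighbouring tissue moved with the genotype too, and in cortex with the factors. In cortex, where 1.28% of all tested genes were called higher and 0.661% lower, 10 of 12 striatal markers rose. Their summed level was 18557 to 19254 normalized counts in wild type and 40795 to 65207 in knockout. In the knockout cortex libraries 8 of the 9 factors were lowest in library 1 and highest in library 2, Nfil3 being the exception, an order shared by 20.4% of all tested genes and by the summed striatal markers (40795, 65207 and 52600 in libraries 1, 2 and 3) and choroid plexus markers (2650, 11656 and 7215). In hippocampus the same striatal markers summed to 17210 to 20543 in wild type and 14333 to 15125 in knockout, lower in each knockout library. Pde10a, the most abundant of these markers, averaged 8138 in wild type and 4928 in knockout. The 12 markers had a median log2 fold change of 0.03, with 2 called higher and 2 lower. Choroid plexus markers summed to 1577 to 1867 in wild-type cortex and 2650 to 11656 in knockout cortex, with 1 of 10 called higher. In wild-type hippocampus they summed to 358933, 13109 and 185907 in libraries 1, 2 and 3, and in knockout to 9463 to 18877, with 1 of 10 called lower. Ciart, Dbp, Nr1d1 and Nr1d2 shared with them the order of the wild-type hippocampus libraries, lowest in library 2 and highest in library 1, as did 21.6% of all tested genes. No marker of either list was at 0 in all libraries of a tissue, and the part of these tissues in the results was not tested.

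**Figure D5:**
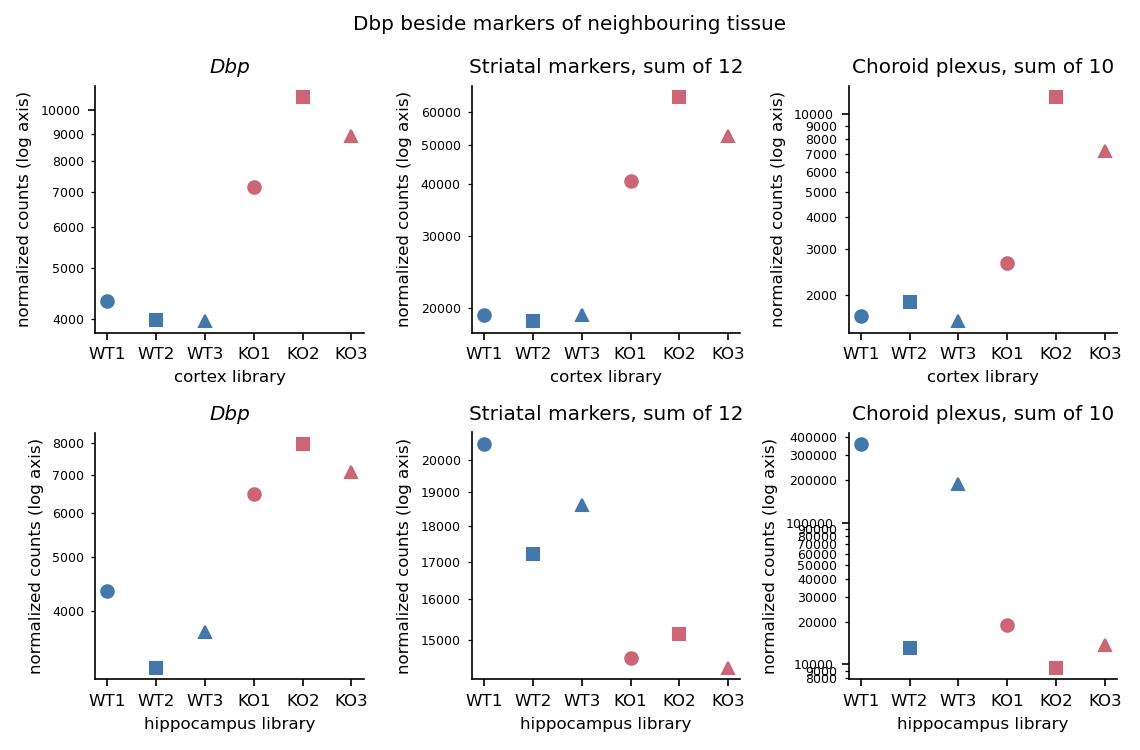
Normalized counts on log axes (not from 0) of Dbp, of 12 striatal markers summed and of 10 choroid plexus markers summed, by library, blue for wild type (WT) and red for knockout (KO), cortex above and hippocampus below. Dbp is higher in each knockout library of both tissues, and both marker sums are higher in the knockout in cortex (40795 to 65207 against 18557 to 19254 for striatum). The striatal sum, in which Pde10a is the most abundant gene, is lower in knockout hippocampus (14333 to 15125 against 17210 to 20543).

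Markers of other cell types were counted as well. Of all tested genes in hippocampus, 14.1% were called higher and 15.1% lower. There 9 of 10 microglia markers rose, with summed levels of 24196 to 28890 in wild type and 34680 to 36222 in knockout. So did 6 of 10 oligodendrocyte, 4 of 8 excitatory neuron and 5 of 8 inhibitory neuron markers, while 5 of 10 astrocyte markers rose and 1 fell. In cortex 1 of 10 microglia, 2 of 10 endothelial and 2 of 8 inhibitory neuron markers rose, and 1 of 10 astrocyte and 1 of 10 meningeal markers fell. Over all tested genes there, 1.28% were called higher and 0.661% lower. Without cortex wild-type library 2, where 11% of all tested genes were called higher and 10.4% lower, 8 of 10 oligodendrocyte, 7 of 8 inhibitory neuron, 6 of 10 endothelial, 5 of 8 excitatory neuron and 3 of 10 microglia markers rose. In that comparison 1 inhibitory neuron, 1 endothelial, 2 excitatory neuron, 2 astrocyte and 3 meningeal markers fell and 1 astrocyte marker rose. With all libraries, oligodendrocyte markers summed to 349571 to 360211 in wild-type cortex and 401078 to 433501 in knockout cortex, without overlap. Of the cortical and hippocampal lists, 1 cortical marker rose and 1 fell in cortex and 1 hippocampal marker rose and 3 fell in hippocampus. Their part in the levels of the 9 factors was not tested.

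In hippocampus the share of calls that were higher was 48.2% of all calls and 74.7% once the trend of each library along merged exonic length was removed. That step shifted the all-gene median from 0.02 to 0.14. The merged exons of the 9 factors span 2.03 to 7.87 kb. Among protein-coding genes of 2 to 8 kb, 21% were called higher in hippocampus and 8.4% lower, and 1.94% and 0.682% in cortex. With the trend removed, 7 of the 9 rose and 0 fell, where 28.5% of all tested genes were called higher and 9.64% lower: Hlf was called higher (0.18, limma adjusted p = 0.0350), Nfil3 missed the threshold (-0.31, adjusted p = 0.0534), and Tef changed sign (0.14, adjusted p = 0.0880). In cortex 7 rose with the trend removed, where 4.61% of all tested genes were called higher and 1.92% lower, in place of 1.28% and 0.661%.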

How the data were processed

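Gene-level RNA sequencing of 12 mouse brain libraries was analysed. The authors deposited 1 table per tissue of normalized counts (a signal that is never negative). The submitters' processing notes name STAR, HTSeq, DESeq2 and GRCm38; the sources used here give no settings. Each deposited value was a whole multiple of its library's step (0.902 to 1.07; 100% within 0.001), and values divided by that step were taken as reads; for cortex wild-type libraries 1 and 2 the step is so near 1 that this reading could not be checked further. Columns of other samples numbered 0. Identifiers were matched to GENCODE of the same build (55227 of 55487). Genotypes were compared per tissue with limma 3.58.1 (R 4.3.3, prior variance following expression) on log2(normalized count + 1), keeping genes whose mean reached 10; intervals are at 95%. Alternatives were edgeR 4.0.16 and DESeq2 1.42.0 on recovered reads, quantile and TMM scaling, pseudocounts of 0.5 and 5, other filters, a constant prior variance, the length trend (loess), a replicate block and leaving out each library. The fits were also run on simulated counts with the same dispersion for all genes and no library standing apart. That run therefore does not cover the effect of cortex wild-type library 2. The members and lists were chosen with earlier results of these data known. Named genes were the 9 factors, called genes of the pathway lists, the 8 genes closest to Dbp and to Ciart, and Tert; genes of these lists named without a call (Arntl, Per2, Clock in cortex and Fabp7 in hippocampus) and overlapping genes were added after their values were seen. Proteins were not used here.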

Additional observations from a re-analysis of the deposited data

How the results depend on the processing

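In hippocampus the number of factors called stayed between 6 and 7 over all 17 alternatives (7 with all libraries), and the core clock and target counts, 12 and 5, between 8 and 13 and between 4 and 6, though the core clock calls went from 6 higher and 6 lower to 9 and 3 with the length trend removed. In cortex the numbers depended on the setting: 4 factors, 2 core clock genes and 2 targets were called with all libraries, 1, 1 and 0 with a constant prior variance, 8, 6 and 2 with DESeq2, and 7, 6 and 2 with the length trend removed. Calls over all cortex genes moved with them, from 426 to 86, 1609 and 1432. Of the targets, 1 was called with quantile normalization and 1 without a filter on low values. Leaving out 1 library gave 1 to 8 factors, 0 to 10 core clock genes and 0 to 4 targets; the highest of each was without wild-type library 2. The cause of these differences was not tested. With the replicate block the cortex counts were 1, 0 and 1 (45 over all genes), and the hippocampus counts were 7, 12 and 5. Same-numbered libraries of the genotypes had correlations of deviations of -0.0255, 0.00474 and -0.0649 in cortex and of -0.0266, 0.0915 and -0.023 in hippocampus. Not every library correlated best with its own number. No label states that same-numbered libraries pair, and correlations over 3 libraries a group cannot decide it. The factors with a different effect between the tissues numbered 0 in all 23 alternatives. In sign, Tef in hippocampus turned to 0.14 with the length trend removed. The difference between the tissues (0.06 for Nr1d1, -0.05 for Bhlhe41) turned for Nr1d1 to -0.0013 with edgeR and for Bhlhe41 to 0.012 with quantile normalization and 0.12 with the length trend removed. Leaving out 1 library gave -0.019 (without cortex knockout library 1) to 0.13 for Nr1d1 and -0.15 to 0.045 for Bhlhe41, above zero without cortex wild-type library 2 (0.021) or knockout library 2. The 12 ratios kept their sign in all alternatives run for them. Where the groups do not overlap, leaving out 1 library cannot turn the sign, so for those ratios this shows nothing further. Bhlhe41 to Bhlhe40 in cortex, where the groups overlapped, ran from 0.19 to 0.37 on the log2 scale. Of all hippocampus calls 48.2% were higher, against 60.7% with quantile normalization, 74.7% with the length trend removed and 37.4% with a constant prior variance. Counting error was not set against the spread between libraries; Ciart and Nfil3 had the fewest reads of the 9.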

Other observations

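Lists of genes that respond to neuronal activity and to glucocorticoids, signals known to act on some clock genes, were also counted. Of 15 glucocorticoid-responsive genes, 7 rose and 1 fell in hippocampus, where 14.1% and 15.1% of all tested genes were called higher and lower. In cortex 5 of them rose and 1 fell, where those shares were 1.28% and 0.661%. Their summed level was 71890 to 82115 normalized counts in wild-type and 87881 to 88874 in knockout hippocampus, and 56852 to 59617 in wild-type and 73060.2 to 74585 in knockout cortex. Per1 and Tsc22d3 are on this list and also on the clock lists, and Hif3a, which lay close to both Dbp and Ciart, rose by 1.10 in cortex and 0.87 in hippocampus. Of 17 immediate early genes, 4 rose and 0 fell in hippocampus and 1 rose and 0 fell in cortex. Their summed level did not overlap between the genotypes in hippocampus (48700 to 60799 in wild type and 62236 to 64186 in knockout). In cortex it overlapped (56520 to 77199 in wild type and 54291 to 77006 in knockout).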
